A study of Homo sapiens with 8 samples.

Results

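Cytosolic aminoacyl-tRNA synthetases are the enzymes that join each amino acid to its tRNA before translation. The 10 considered here are WARS1, GARS1, AARS1, SARS1, NARS1, MARS1, IARS1, EPRS1, TARS1 and YARS1, which charge tRNA with tryptophan, glycine, alanine, serine, asparagine, methionine, isoleucine, glutamate and proline (both by EPRS1), threonine and tyrosine. They were picked from the cytosolic enzymes with the 12 h result of these data in view, so their 12 h values are a description and not a test. A probe set, the group of array oligonucleotides that reads 1 transcript region, was taken as a member when its annotation gave exactly 1 symbol and that symbol was in the list. On the 12 h arrays 9 of 8746 probe sets met this rule and stood for 9 of the 10 genes, and on the 6 h arrays 12 of 22215 did, for the same 9 genes. MARS1 had 1 probe set at 12 h and 3 at 6 h, each annotated with a second symbol as well, so no MARS1 level is given.

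MRC5 cells, a line of human diploid lung fibroblasts, received 10 µM 8-oxoguanine, the free oxidised form of the base guanine, or a mock treatment with its solvent. At 6 h there was 1 array of 8-oxoguanine cells and 1 of mock cells. At 12 h there were 3 arrays of 8-oxoguanine cells and 3 of mock cells, called technical replicates by extract in their titles, and these were on a smaller array type. By these titles the 12 h spread is technical, and nothing says that the extracts came from separate cultures. The 12 h SDs, SEs, intervals and adjusted p values therefore measure spread between extracts and may leave out spread between cultures.

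The synthetases belong to a pair of structural classes, and some of them sit together in a large multi-synthetase complex with scaffold proteins. When an amino acid or its charged tRNA runs short, the kinase GCN2 phosphorylates the initiation factor eIF2, and translation of the transcription factor ATF4 increases. ATF4 is known to activate genes for amino acid synthesis and uptake and several synthetase genes, through a composite C/EBP-ATF element. The question put to the data was how exposure to the oxidised base changed gene expression at each time, and here how the synthetase messages took part.

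Depth has no counterpart on arrays, and their number limits the precision. The arrays had been scaled to a trimmed mean signal of 500.1 to 500.5, and their median signals lay between 143 and 165. Of 9 fibroblast markers, 8 were on the 12 h array and all 8 passed the filter on dim probe sets (a mean signal of 93.9), with summed signals of 60713 to 74749 in 8-oxoguanine cells and 61314 to 74707 in mock cells. Of 9 epithelial, endothelial and blood markers on that array, 3 passed, KRT18, KRT19 and PECAM1. The epithelial markers summed to 3979 to 4260 in 8-oxoguanine and 3876 to 4076 in mock cells, the endothelial ones to 133 to 173 in 8-oxoguanine and 164 to 177 in mock cells, and the blood ones to 12.3 to 41.8 in 8-oxoguanine and 9.33 to 49.4 in mock cells. Single markers moved within these sums. KRT19, an epithelial keratin, had 98.1, 112 and 139 in 8-oxoguanine cells against 277, 283 and 271 in mock cells and was called lower (log2 fold change -1.27, SE 0.17, limma adjusted p = 0.00145). Of the 8 fibroblast markers 2 were called higher, LUM, a collagen-binding proteoglycan (1.07, SE 0.17, limma adjusted p = 0.0034), and PDGFRB, a growth factor receptor (0.30, SE 0.08, limma adjusted p = 0.0446), beside 6.59% of all probe sets called higher and 6.65% called lower. The part of these markers in the results was not tested. In bulk RNA, a change in the level per cell and a change in the share of cells that express a gene cannot be told apart.

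The promoter sequences of these genes carry the letters of an ATF4-type element more often than promoters at large. RefSeq windows of 300 bases (GRCh38.p14, from 250 bases before to 50 after an annotated transcript start) were found for 9 of the 10 genes, and YARS1 was not among them. The core TGATGNAA, in which N is any base, was searched on both strands. It was present for 6 of these 9 genes, 66.7%, against 1217 of 27305 genes with a window, 4.46%. The stricter form TGATGCAA, which is contained in the first, was present for 5 of the 9, 55.6%, against 1.08% of all genes. Some genes have several annotated starts, and a gene was counted when any of its windows matched. A match is a description of the letters and not a site of binding, and since the genes were picked with results in view these shares were given no test. The sequences below show each match in capitals with up to 40 bases on either side, on the strand of the gene, so that TTGCATCA is TGATGCAA read on the opposite strand.
AARS1: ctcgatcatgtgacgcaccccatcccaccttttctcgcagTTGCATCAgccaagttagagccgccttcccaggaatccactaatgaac
NARS1: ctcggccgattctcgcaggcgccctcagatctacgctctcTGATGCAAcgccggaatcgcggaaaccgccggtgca
GARS1: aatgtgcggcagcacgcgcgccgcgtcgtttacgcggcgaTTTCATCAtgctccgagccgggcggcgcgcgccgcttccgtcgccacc
TARS1: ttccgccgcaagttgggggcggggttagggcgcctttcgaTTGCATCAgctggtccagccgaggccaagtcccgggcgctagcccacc
IARS1: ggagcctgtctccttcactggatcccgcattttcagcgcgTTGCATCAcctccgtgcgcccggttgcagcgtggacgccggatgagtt
MARS1: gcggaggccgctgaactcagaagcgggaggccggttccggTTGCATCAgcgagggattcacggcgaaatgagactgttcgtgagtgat
CARS1: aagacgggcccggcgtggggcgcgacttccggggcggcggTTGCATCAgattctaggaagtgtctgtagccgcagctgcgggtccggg
ASNS: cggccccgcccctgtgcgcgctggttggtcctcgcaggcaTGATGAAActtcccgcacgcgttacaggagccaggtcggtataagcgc

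These stretches lie at chr16:70289646-70289733 on the minus strand (AARS1), chr18:57621787-57621862 on the minus strand (NARS1), chr7:30594805-30594892 on the plus strand (GARS1), chr5:33440927-33441014 on the plus strand (TARS1), chr9:92293663-92293750 on the minus strand (IARS1) and chr12:57488024-57488111 on the plus strand (MARS1). CARS1, the cysteinyl enzyme, is shown because it was the only other cytosolic synthetase of 7 with a window that had a match, at chr11:3057378-3057465 on the minus strand. ASNS, the asparagine synthetase gene whose promoter element is a textbook target of this pathway, is shown for comparison, at chr7:97872429-97872516 on the minus strand. Most genes listed for the ATF4 pathway had no such match. Of the 19 with a window, 7 had TGATGNAA, 36.8%, and 3 had TGATGCAA, 15.8%. TRIB3, PSAT1 and PHGDH were among those without either. Of the 7 matches in cytosolic synthetase genes, 6 had the same 8 letters, and GARS1 had TTTCATCA, which is the ASNS match read on the opposite strand. The matches lay close to the transcript start, beginning 33 bases before it in GARS1, 13 in IARS1, 4 in MARS1 and 2 in CARS1, and 2 bases after it in TARS1 and 14 in NARS1. AARS1 was the exception, at 187 bases before. WARS1, SARS1 and EPRS1 had no match in their windows, which says only that these letters are not in them.

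**Figure D1:**
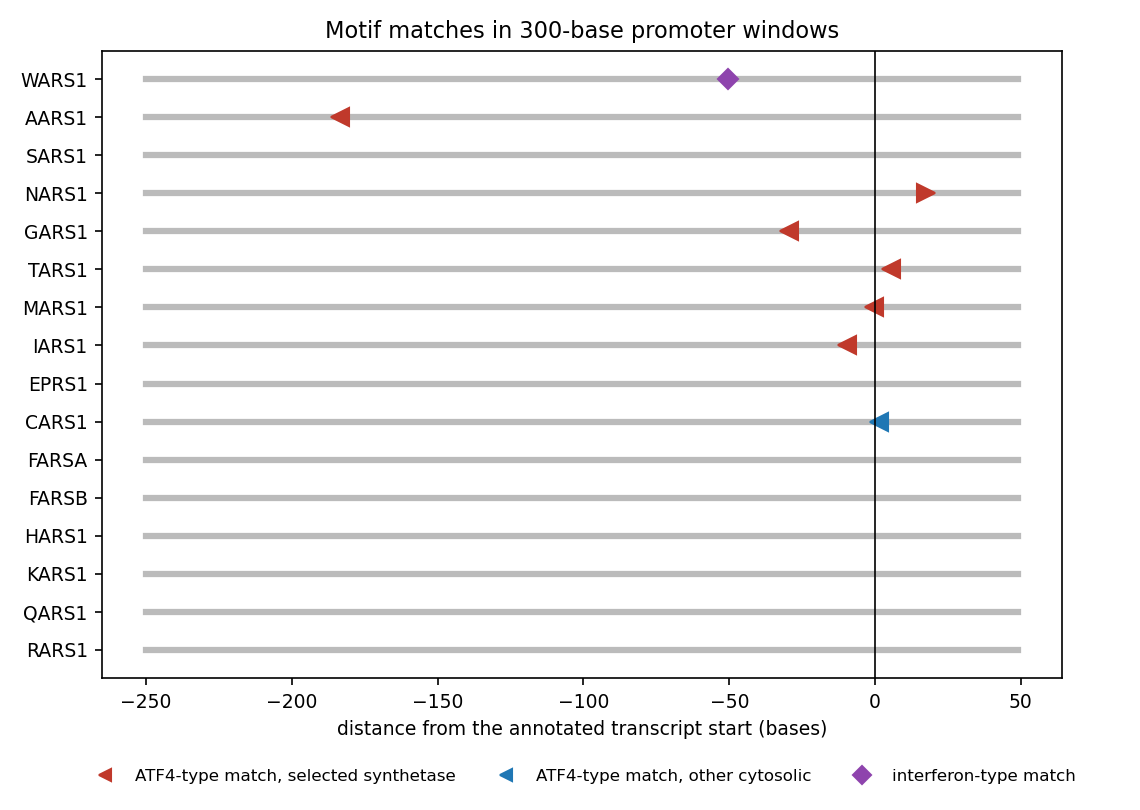
Positions of motif matches in the promoter windows of the cytosolic synthetase genes that had one (grey bars, 250 bases before to 50 after the transcript start at 0; x axis in bases). Arrowheads mark TGATGNAA, pointing right for the gene's strand and left for the opposite strand, in red for the selected enzymes and blue for the others, and the diamond marks GAAANNGAAA in WARS1; for genes with several annotated starts, matches are drawn from the start of their own window. 6 of the 9 selected genes and 1 of the other 7 carry an arrowhead.

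At 12 h all 9 measured synthetases had a higher mean signal in 8-oxoguanine than in mock cells, as 51.4% of all probe sets did on the log2 scale. On a log2 scale, where 1 is a doubling, their differences ran from 0.18 for YARS1 to 0.77 for WARS1, with a median of 0.28 against 0.01 for all 5248 probe sets tested. For 8 of the 9 every 8-oxoguanine array lay above every mock array, as it did at 17.4% of all probe sets, and YARS1 was the one that overlapped. In limma's moderated test across the whole array, at an adjusted p (Benjamini-Hochberg) under 0.05, 5 of the 9 (WARS1, AARS1, SARS1, NARS1 and EPRS1) were called higher, beside 6.59% of all probe sets. Nothing is read from these shares, since this contrast chose the genes. The count was 1 without 8-oxoguanine replicate 1, 2 without 8-oxoguanine replicate 2, and 3 without mock replicate 1 or mock replicate 3. WARS1 was the gene called under every one of these omissions.

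WARS1, the tryptophanyl enzyme, stood apart from the other members. Its signal was 2094, 2206 and 2295 in 8-oxoguanine cells, against 1302, 1207 and 1357 in mock cells. All 3 treated arrays lay far above all 3 mock arrays, and the log2 fold change was 0.77 (SE 0.08), or 1.71-fold. The next in size, AARS1, was at 0.39. YARS1, the tyrosyl enzyme and the closest relative of WARS1 in class I, was at the other end. It had 2538, 2594 and 2179 in 8-oxoguanine cells and 2089, 2324 and 2032 in mock cells. The third treated array fell below the second mock array, and the log2 fold change was 0.18 (SE 0.09).

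Among the class II enzymes that act outside the complex, AARS1, the alanyl enzyme, had 2605, 2289 and 2362 in 8-oxoguanine cells against 1761, 1957 and 1833 in mock cells. SARS1, the seryl enzyme, had 2980, 2976 and 3075 against 2155, 2582 and 2302. Neither gene's groups overlapped, and the log2 fold changes were 0.39 (SE 0.08) and 0.36 (SE 0.08), or 1.31-fold and 1.29-fold. NARS1, which charges asparagine, had 3303, 3122 and 3054 in 8-oxoguanine cells and 2603, 2237 and 2672 in mock cells, a log2 fold change of 0.34 (SE 0.08). The second mock array was its lowest, and the groups did not overlap.

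GARS1, the glycyl enzyme, whose gene also gives the mitochondrial form, had 7807, 8004 and 9145 in 8-oxoguanine cells against 6929, 6856 and 7059 in mock cells. The third treated array stood above the other two (SD 722) while the mock arrays were nearly level (SD 103), with a log2 fold change of 0.26 (SE 0.08). TARS1, the threonyl enzyme, had 2446, 2603 and 2688 in 8-oxoguanine cells and 2046, 2433 and 2222 in mock cells. Its lowest treated array exceeded its highest mock array by a narrow margin, and the log2 fold change was 0.21 (SE 0.08).

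IARS1 and EPRS1 were the measured members that belong to the multi-synthetase complex, which also holds MARS1. EPRS1 was called higher and IARS1 was not. IARS1, the isoleucyl enzyme, had 5313, 5364 and 5468 in 8-oxoguanine cells, against 4736, 3709 and 4914 in mock cells. The second mock array lay far below the other two, and the log2 fold change was 0.28 (SE 0.10), falling to 0.16 without that array. EPRS1, a single protein that holds the glutamyl and prolyl enzymes, had 2064, 2139 and 2049 in 8-oxoguanine cells against 1755, 1665 and 1766 in mock cells. Both groups were tight, with an SD of 48.3 in 8-oxoguanine and 55.6 in mock cells, and the log2 fold change was 0.27 (SE 0.07).

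**Figure D2:**
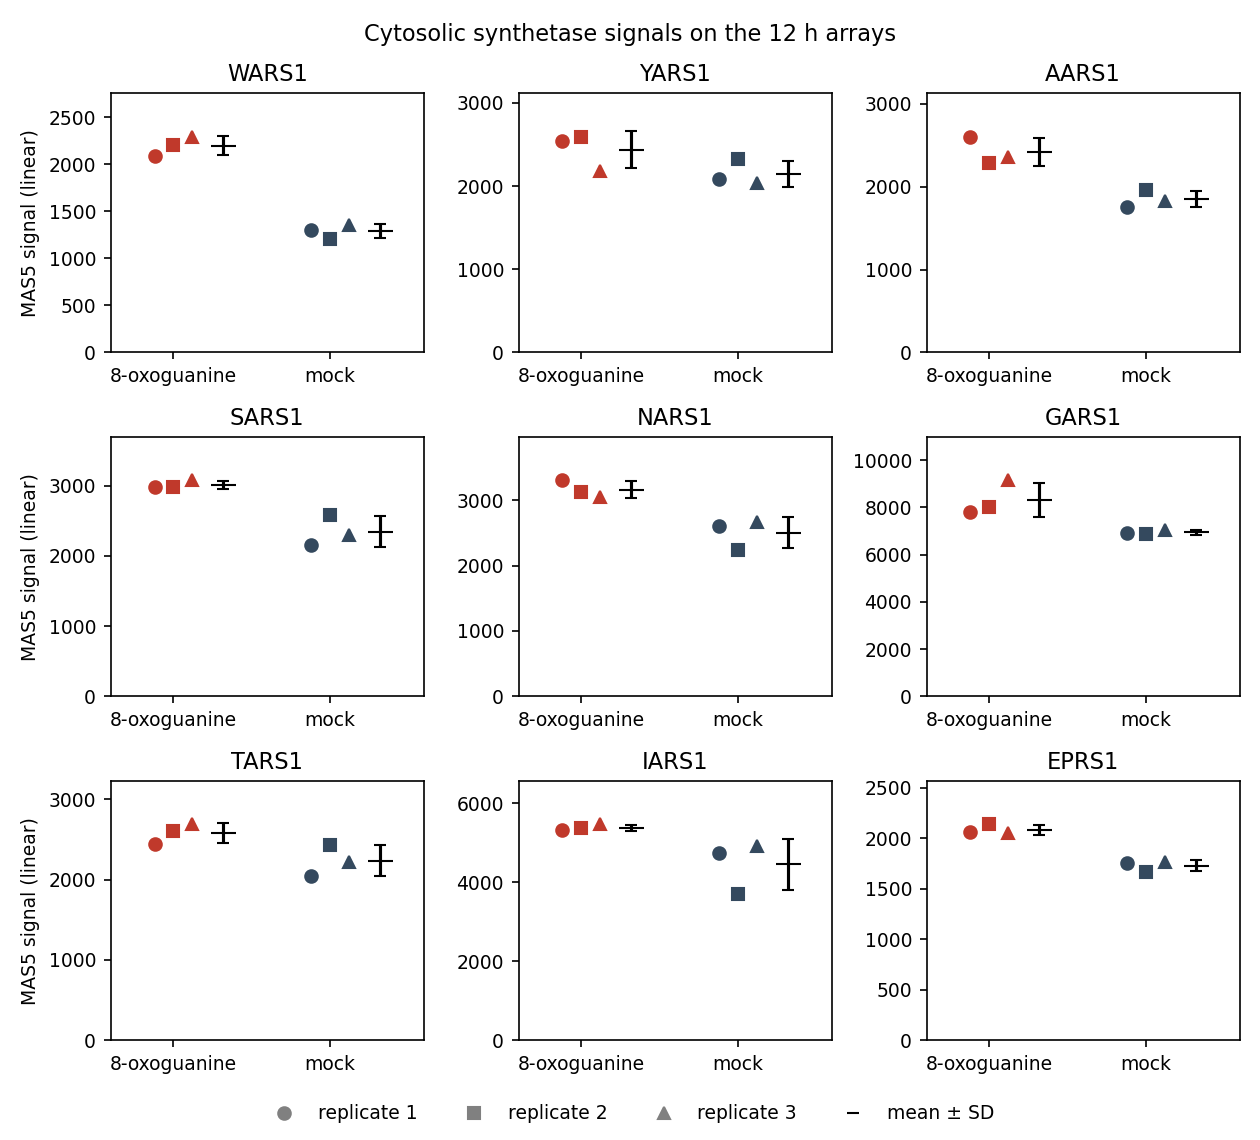
Signals (linear MAS5 scale, y axes from 0) of the 9 measured synthetase genes on the 12 h arrays, 8-oxoguanine left in red and mock right in blue-grey. The mean ± SD stands beside each group (n = 3 arrays, technical replicates by extract). WARS1 shows the widest gap, 2198 ± 101 against 1289 ± 76.0, and YARS1 is the gene whose groups overlap.

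Averaged over the 9 genes, the deviation from each gene's own mean log2 signal was 0.17, 0.17 and 0.18 on the 8-oxoguanine arrays and -0.19, -0.18 and -0.14 on the mock arrays. The members' mean was therefore nearly level within each treatment, although single genes were not. The third 8-oxoguanine array gave the highest value for 5 of the 9 and the second mock array the lowest for 5. These were also the arrays that deviated most from their groups over all probe sets, with an SD of deviation of 0.20 each on the log2 scale, against 0.15 to 0.18 on the other 4. The non-member genes whose 12 h profile lay nearest to the members' mean profile were PHC1, RPL14, EFEMP2, RGS4 and GOT1, with mean absolute distances of 0.02 to 0.03 on the log2 scale over the 6 arrays. Single members lay at 0.04 (EPRS1) to 0.22 (WARS1) from the same mean.

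The other cytosolic synthetases gave a mixed picture. They are the enzymes left after the members were picked with the 12 h result in view. Their contrast with the members at 12 h is therefore a description and not a test. Of 10 listed, 6 were measured at 12 h, and 1 of them, CARS1, was called higher, 5 did not pass and none was called lower, beside 6.59% of all probe sets called higher and 6.65% called lower. CARS1 had 3453, 3175 and 3789 in 8-oxoguanine cells against 2656, 2899 and 2792 in mock cells, with no overlap. Its log2 fold change was 0.32 (SE 0.08, limma adjusted p = 0.0288). The call was lost without 8-oxoguanine replicate 1 (adjusted p = 0.0946) or 3 (0.0661) and without mock replicate 1 (0.0933) or 3 (0.0792), and over all alternatives the adjusted p lay between 0.018 and 0.0946.

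FARSA, the catalytic subunit of the phenylalanyl enzyme, had 317, 303 and 343 in 8-oxoguanine cells and 410, 423 and 372 in mock cells. RARS1, the arginyl enzyme of the complex, had 1242, 1328 and 1229 against 1487, 1602 and 1384. In both genes every treated array lay below every mock array, yet neither passed, with log2 fold changes of -0.32 (SE 0.11, limma adjusted p = 0.0797) and -0.23 (SE 0.08, limma adjusted p = 0.0814). HARS1, the histidyl enzyme, was at -0.17 (95% interval -0.44 to 0.09), and VARS1, the valyl enzyme, at -0.08 (-0.31 to 0.15). KARS1, the lysyl enzyme of the complex, had probe sets at -0.08 (-0.30 to 0.14) and 0.08 (-0.13 to 0.29), so its direction is not settled. The median of the 6 genes was -0.13.

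**Figure D3:**
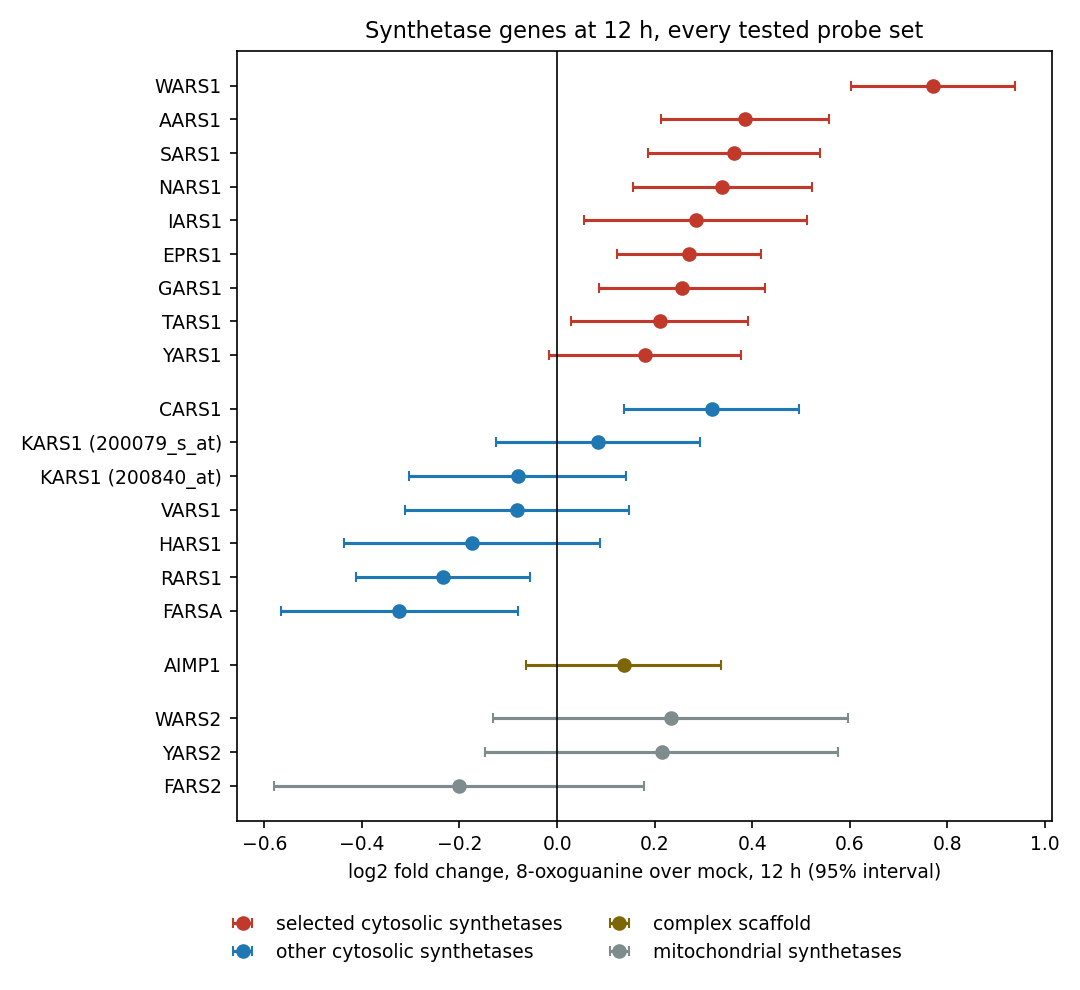
Log2 fold change at 12 h, 8-oxoguanine over mock, with its 95% interval from limma, for every tested probe set of the selected cytosolic synthetases (red), the other cytosolic synthetases (blue), the scaffold AIMP1 and the mitochondrial synthetases (grey). All 9 red points lie to the right of 0, from 0.18 to 0.77, and CARS1 at 0.32 is the blue point that lies within that range. The division into red and blue was made with 12 h results in view.

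Both structural classes, and the complex, held genes on either side of 0. Over the 15 measured cytosolic genes, class I ran from -0.23 to 0.77 (6 genes, median 0.23) and class II from -0.32 to 0.39 (8 genes, median 0.23), with EPRS1 in both. Within the complex, IARS1 (0.28) and EPRS1 (0.27) lay above 0 and RARS1 (-0.23) below it, while the KARS1 probe sets lay on either side. AIMP1, its scaffold protein, was at 0.14 (SE 0.09, limma adjusted p = 0.357). Differences between these groups were not tested.

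Set against the promoter letters shown above, the 6 measured cytosolic genes with a TGATGNAA match had log2 fold changes of 0.21 to 0.39, all above 0. The 7 with a window and no match ran from -0.32 to 0.77, and 3 of them, WARS1, SARS1 and EPRS1, lay above 0. The members were picked from the cytosolic enzymes with the 12 h result in view. That choice also left CARS1, HARS1, KARS1, RARS1 and FARSA as non-members, so it bears on both sides of the split. No result is read from the split. A core of the interferon-stimulated response element, GAAANNGAAA on either strand, was also searched, because WARS1 is a known interferon gamma target. It was present in 1 of the 9 selected genes, 11.1%, against 4.38% of all genes, and that gene was WARS1, at a second annotated start (chr14:100375353-100375442, minus strand, 55 bases before that start).
WARS1: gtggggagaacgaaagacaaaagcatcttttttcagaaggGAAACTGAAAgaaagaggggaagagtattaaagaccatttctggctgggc

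Of 7 tested interferon response genes, 2 were called higher, PSMB8, an immunoproteasome subunit (1.42, SE 0.36), and IFITM1, a membrane-bound antiviral protein (0.40, SE 0.09), and 5 did not pass, beside 6.59% of all probe sets called higher. PSMB8 was dim, with 293, 277 and 308 in 8-oxoguanine cells against 118, 56.7 and 195 in mock cells. The second mock array lay below 93.9, the limit that the filter set for a mean signal. Without that array the log2 fold change was 0.95. PSMB8 was not called without any one 8-oxoguanine array or mock replicate 1, with limma adjusted p of 0.0579 to 0.0856. IFITM1 lost its call on omission of mock replicate 1 or 3, or of 8-oxoguanine replicate 1 or 2 (limma adjusted p of 0.0524 to 0.0902). IRF1, which transmits interferon gamma signals, was at -0.04 (SE 0.12) and GBP1, an interferon-induced GTPase, at 0.35 (SE 0.16), and neither passed. The others that did not pass were PSMB9 (0.33, SE 0.14), GBP2 (0.26, SE 0.16) and ISG15 (-0.28, SE 0.11). The median of the 7 was 0.33, and 5 of them lay above 0, beside 51.4% of all probe sets. In 4 of the 7 every treated array lay above every mock array, beside 17.4% of all probe sets.

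Genes of the ATF4 pathway, a list chosen with earlier results known, were higher as well. Of 20 tested genes of amino acid synthesis, uptake and the ATF4 response, 14 were called higher, none lower, and 6 did not pass, beside 6.59% of all probe sets called higher and 6.65% called lower, with a median log2 fold change of 0.65 against 0.28 for the synthetases. ATF4 itself, named after its values were seen, had 4445, 4240 and 5558 in 8-oxoguanine cells against 2857, 3597 and 3297 in mock cells. The groups did not overlap, and the difference was 0.54 on the log2 scale (SE 0.12, limma adjusted p = 0.0145). TRIB3, ASNS, NUPR1 and ATF3 were the 4 with the largest changes, 1.06 to 1.52. WARS1 therefore lay above the median of that list, and the other members lay below it. Upstream of ATF4, the list of amino acid sensing and eIF2 phosphorylation genes had 4 tested at 12 h, EIF2AK1, EIF2AK2, EIF2AK3 and EIF2S1. GCN2 (EIF2AK4), GCN1 and IMPACT of that list had no 12 h value, and GCN2 had none at 6 h, so the GCN2 message was not measured. Of the 4 tested, 1 was called lower and none higher, beside 6.65% of all probe sets called lower and 6.59% called higher. It was EIF2AK3, the endoplasmic reticulum kinase PERK, with 143, 168 and 141 in 8-oxoguanine cells against 260, 227 and 193 in mock cells (-0.59, SE 0.17, limma adjusted p = 0.0464). That call was lost when any one array except mock replicate 3 was left out (0.0714 to 0.145). None of 4 elongation factor genes, which receive the charged tRNA or move the ribosome, passed in limma's test, and 1, EEF1A2 (0.28, SE 0.11), had an unadjusted p under 0.05.

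None of the mitochondrial synthetases passed in limma's test at 12 h, nor had an unadjusted p under 0.05, and only 3 of 17 were measured. WARS2 was at 0.23 (95% interval -0.13 to 0.60), YARS2 at 0.21 (-0.15 to 0.58) and FARS2 at -0.20 (-0.58 to 0.18). Their signals were dim, between 143 and 282 over all 6 arrays, and the intervals are too wide to set them apart from the cytosolic enzymes.

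At 6 h, with a single array per treatment and so no test, the brightest probe set of all 9 members had a higher signal in 8-oxoguanine than in mock cells. The median log2 ratio was 0.35, against -0.03 for the 11108 probe sets kept, of which 45.6% lay above 0. Bright probe sets as a whole were higher on the treated array, which had a top signal of 22762 against 10699 on the mock array. Among the 1068 probe sets in the members' own range of mean signal, from 2358 to 6591, the median ratio was 0.15 and 73.5% lay above 0. With median centring the members' median was 0.46 and all 9 lay above 0, beside 61.1% of all probe sets. Quantile normalization, which gives both arrays the same distribution of signals, lowered the members' median to 0.22, with 6 of 9 above 0 beside 52.9% of all probe sets, while the median of the probe sets in the members' range became 0.02.

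GARS1 and IARS1 had the highest deposited ratios. GARS1 had 7891 in 8-oxoguanine and 5213 in mock cells, and IARS1 had 7998 against 5431. Their log2 ratios of 0.60 and 0.56 became 0.22 and 0.15 after quantile normalization. AARS1 and SARS1 kept more of theirs. AARS1 had 4216 in 8-oxoguanine and 3008 in mock cells, a log2 ratio of 0.49 that became 0.38, and SARS1 had 4579 against 3449, a ratio of 0.41 that became 0.28. YARS1, with 4082 in 8-oxoguanine and 3204 in mock cells, had 0.35 and then 0.24.

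NARS1 (5484 in 8-oxoguanine and 4635 in mock cells) had 0.24, and TARS1 (3442 and 3385) had 0.02. Quantile normalization turned both below 0, to -0.01 and -0.06. EPRS1 was read by 3 probe sets, with 3649, 3017 and 1229 in 8-oxoguanine cells and 2910, 2471 and 1148 in mock cells, and ratios of 0.33, 0.29 and 0.10. They had the same sign and stayed between 0.18 and 0.24 after quantile normalization.

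Among the members, the 6 h reading of WARS1 depended most on the probe set. The probe set used at 12 h had 2365 in 8-oxoguanine and 2351 in mock cells, a log2 ratio of 0.01 that became -0.0016 with quantile normalization. Its other probe set, which is not on the 12 h array, had 1769 in 8-oxoguanine and 1374 in mock cells, a ratio of 0.36 that became 0.41. On the same probe set, WARS1 was thus level at 6 h and the most changed synthetase at 12 h, whereas AARS1 and SARS1 had ratios of like size at both times. Array type and array number differ along with time, and these cannot be told apart, so no test of early against late was made.

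**Figure D4:**
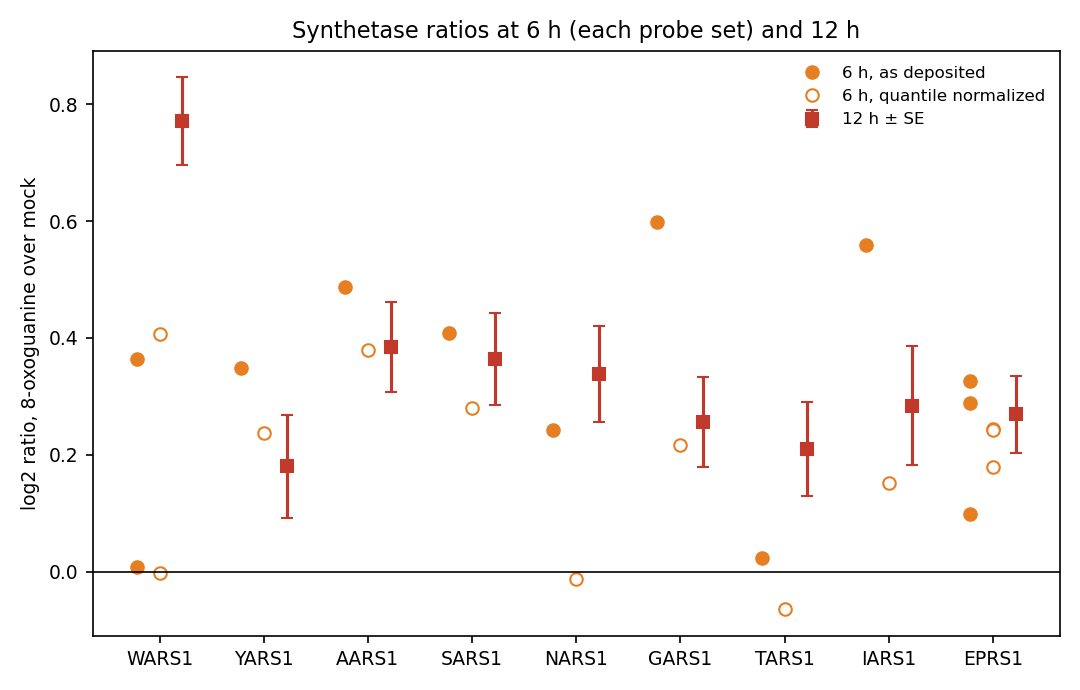
Log2 ratio of 8-oxoguanine over mock for each synthetase gene, with every 6 h probe set as deposited (filled circles) and after quantile normalization (open circles), and the 12 h fold change ± SE (squares). The WARS1 probe set of both times moves between 0.01 at 6 h and 0.77 at 12 h, while AARS1 stays between 0.38 and 0.49.

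Of the other cytosolic synthetases at 6 h, 7 were measured and 2 lay above 0, beside 45.6% of all probe sets kept. The 2 were CARS1 (0.39, and 0.28 after quantile normalization) and KARS1 (0.53 and 0.09). After quantile normalization 4 of the 7 lay above 0, beside 52.9% of all probe sets. With median centring 5 did, beside 61.1%. CARS1 had 4430 in 8-oxoguanine and 3380 in mock cells, and its second probe set was at 0.03. HARS1 (-0.0028), RARS1 (-0.02), VARS1 (-0.06) and LARS1 (-0.18) were near or below 0, and with median centring the first 3 turned to 0.11, 0.10 and 0.06. Quantile normalization put HARS1 at 0.06, VARS1 at 0.03, RARS1 at -0.01 and LARS1 at -0.09. FARSA had probe sets that disagreed, at -0.81 and 0.35, so no direction is given for it. Of 9 mitochondrial synthetases kept at 6 h, 4 lay above 0, beside 45.6% of all probe sets kept, with a median of -0.04. Under either median centring or quantile normalization the mitochondrial median was 0.08 and 5 of the 9 lay above 0. By the brightest probe set of each gene, CARS2 (0.37) and HARS2 (0.34) had the highest ratios. FARS2 had probe sets that disagreed, at -0.22 for the brightest and 0.38 for another. The medians of the other lists were 0.24 for the ATF4 pathway, 0.04 for the interferon genes, 0.56 for the elongation factors and -0.21 for the sensing genes. After quantile normalization they were 0.09 for the ATF4 pathway, 0.15 for the interferon genes, 0.07 for the elongation factors and -0.14 for the sensing genes. With median centring the ATF4 pathway was at 0.36, the interferon genes at 0.16, the elongation factors at 0.68 and the sensing genes at -0.09.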

How the data were processed

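Biotin-labelled total RNA was read on single-colour oligonucleotide arrays. Groups follow the treatment and time labels. The treatment protocol names 6 h throughout, whereas the replicated arrays are labelled 12 h, which was taken as their time. The authors deposited 1 MAS5 intensity per probe set and array, per the submitters' processing notes, on a linear scale, and its version is not stated. The trimmed means (2% removed from each end) show scaling by the authors to a common level.

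Log2 of the deposited intensity was used as it stood, without controls. Probe sets with a mean log2 value below the 40th percentile (12 h, 5248 of 8746 kept) or the 50th (6 h, 11108 of 22215 kept) were removed. Names came from the platform annotation (1 symbol for 7840 probe sets at 12 h and 19064 at 6 h), several or no symbols being left unnamed (388 and 518 at 12 h, 1043 and 2108 at 6 h). RefSeq names (GRCh38.p14) altered 0 of these. Treated and mock arrays at 12 h were compared with limma 3.58.1 (R 4.3.3, eBayes with trend), two-sided, with Benjamini-Hochberg adjustment over all tested probe sets. A gene with several probe sets was counted by its brightest. On data simulated for the 12 h comparison, 80 of 100 probe sets with a 2-fold change and 51 of 100 with a 1.5-fold change were recovered among 5248, beside 4 false calls. The simulation changed fewer probe sets than the 695 called in the data. It also took the observed spread between extracts as the true spread, so it does not describe separate cultures.

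Named were every member, every other measured cytosolic synthetase and scaffold gene, up to 4 genes past the threshold in each other list, and the 5 genes of nearest 12 h profile. IRF1, GBP1, PSMB9, GBP2, ISG15, EEF1A2, ATF4, the cell type markers and the mitochondrial genes were named after their values were seen. The members and lists were chosen with earlier results of these data known. Alternatives covered scaling, the filter on dim probe sets, a constant before log2, the trend, a block for replicate number, averaged probe sets and omission of each 12 h array.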

Additional observations from a re-analysis of the deposited data

How the results depend on the processing

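The 12 h median of the members stayed above 0 under every alternative, at 0.27 with median centring and at 0.26 to 0.35 when 1 array was left out. The count of members called, 5, was 2 with no intensity trend and 1 to 6 with 1 array left out. That of other cytosolic synthetases called, 1, was 0 with no filter, with no intensity trend and with the replicate block, and 0 to 1 with 1 array left out. Over all probe sets 695 were called, and 371 to 652 with 1 array left out. KARS1 ran from -0.1549 to 0.0407 with 1 array left out, turning above 0 without 8-oxoguanine replicate 3, and turned to 0.0016 with the mean of its probe sets. At 6 h the members' median, 0.35, was 0.3475 with a constant added, 0.46 with median centring and 0.22 with quantile normalization. WARS1 was called under all 14 alternatives, and AARS1 under 13, while NARS1 lost its call under 4, SARS1 under 5 and EPRS1 under 7, the replicate block among them. GARS1, which did not pass, was called under both other scalings and with the stricter filter, and TARS1 without mock replicate 2. Same-numbered 12 h arrays did not deviate together (correlations of 0.0757, -0.149 and -0.0503). The largest correlation, 0.201, was between 8-oxoguanine replicate 3 and mock replicate 2. Pairing by number was thus not seen, which does not show that the extracts were unpaired. The replicate block called 4 members and 513 probe sets. The number of arrays, and the single pair at 6 h, limits every value.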
